A study of Homo sapiens with 6 samples.

Results

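Cells that activate ERK, the kinase at the end of the RAS, RAF and MEK cascade, also make inhibitors of that cascade, and 10 genes for such inhibitors are described here in Jurkat cells with lowered SATB1. They are the dual-specificity phosphatase genes DUSP1, DUSP2, DUSP4, DUSP5, DUSP6 and DUSP10, the Sprouty genes SPRY1 and SPRY2, and the Sprouty-related genes SPRED1 and SPRED2. They were taken by symbol, through the GENCODE 29 annotation, from the 58735 genes of the count tables. Each symbol had 1 Ensembl identifier, and all 10 passed the filter on low counts that left 17520 genes to test. Jurkat is an established human T cell leukaemia line, grown here in medium with serum, and the labels name no stimulus. The control group (shCtrl) carried a lentiviral control short hairpin RNA, and the knockdown group (shSATB1) a lentiviral hairpin against SATB1, the gene of a chromatin-organising protein of T cells. Each group held 3 RNA-seq libraries, and the comparison asks how these transcripts differ when SATB1 is lowered. The design names 1 hairpin vector per group, so an effect of SATB1 loss and any other effect of that hairpin cannot be told apart. The labels do not say whether replicates came from separate infections, and the p-values therefore cover the variation among these 6 libraries, which may be technical.

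The phosphatases encoded by DUSP genes remove phosphate from the activation loop of MAP kinases. DUSP1, DUSP2, DUSP4 and DUSP5 proteins act in the nucleus, DUSP6 acts on ERK in the cytoplasm, and DUSP10 prefers the stress kinases p38 and JNK to ERK. Sprouty proteins act near the membrane and limit RAS activation after receptor signals, while SPRED proteins recruit neurofibromin, which switches RAS off. Several of these genes are themselves transcribed on ERK signalling, and DUSP2 was first known from activated T cells.

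Libraries held 26626539 to 28913623 reads in annotated genes, and the members were covered by 11 reads (DUSP4) to 1650 reads (SPRED2) per library. SATB1 stood at 279.1, 258.5 and 259.3 CPM (counts scaled to a common library size after TMM normalization) in shCtrl, against 101.8, 100.2 and 104.1 CPM in shSATB1. The targeted transcript was thus lower in each knockdown library than in each control library, as the labels state. T lineage markers were present, with CD3E, the gene of a T cell receptor subunit, at 483.6 CPM in shCtrl. Of the 8 listed, 3 fell (edgeR), 37.5% of them against falls in 16.6% of all tested genes. These were CD3D from 380.7 ± 46.1 to 308.0 ± 20.7 CPM, CD247 from 188.4 ± 4.58 to 159.6 ± 6.05 CPM and CD2 from 153.8 ± 16.7 to 117.7 ± 1.01 CPM (adjusted p = 0.0131, 0.00782 and 0.00163, passing in 12, 12 and 14 of 15 alternatives). In 1 or more of these alternatives the log2 fold change of CD3D was above 0 (-0.39 to 0.045). The other 5 did not pass, and of the 8 only CD3G had a log2 fold change above 0 (0.16, edgeR adjusted p = 0.110). The summed level of the 8 was 2430 to 2737 CPM in shCtrl and 2279 to 2421 CPM in shSATB1. Of 5 myeloid markers, LYZ, MPO and CSF1R had at most 4, 2 and 9 reads in a library. CD14 had 6 to 23 reads and CD33 had 16 to 29, and neither passed (edgeR adjusted p = 0.471 and 0.427). Of 6 epithelial and stromal markers EPCAM had no read, but VIM stood at 198.4 ± 28.5 CPM in shCtrl, and the collagen gene COL1A1 rose from 15.5 ± 1.52 to 20.8 ± 0.694 CPM (adjusted p = 0.00295, passing in 14 of 15 alternatives). CD79A, a B lineage marker, fell from 60.5 ± 5.03 CPM to 50.4 ± 4.61 CPM (adjusted p = 0.0249, passing in 11 of 15 alternatives). Over the alternatives the log2 fold change ran from -0.34 to -0.0035 for CD79A and from -0.31 to 0.14 for VIM. The part of these marker changes in the results on the members was not tested. Reads outside annotated exons made up 7.77% to 10.2% of a library in shCtrl and 10.9% to 11.7% in shSATB1, so this share moved with the groups. A fit with it as a covariate, called the covariate from here on, is given below where it changes a direction or a call. For the markers above it is 1 of the 15 alternatives and is not given separately.

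SPRED1 and DUSP10 were higher in the knockdown, 1.47-fold and 1.52-fold, and these were the only members that passed the test. Of the 10 members, 2 rose and 0 fell at an adjusted p under 0.05 (edgeR quasi-likelihood test with Benjamini-Hochberg adjustment over all tested genes). Over all tested genes 30.9% passed, 14.3% as rises and 16.6% as falls, so the 20.0% of members called is no larger than the share of genes at large. At an unadjusted p under 0.05 there were 4 rises and 0 falls, and DESeq2 and limma-voom also called 0 members as lower. The share of all tested genes at that unadjusted threshold was not taken. It cannot be below the 30.9% that passed after adjustment, but its size is unknown. The unadjusted count therefore cannot be read as an excess among the members or as the lack of one. The knockdown and control libraries did not overlap for 3 members (SPRED1, DUSP10 and SPRY2), 30.0% of them, against 45.1% of all tested genes. The median log2 fold change was 0.22 for the members and 0.0091 for all tested genes.

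**Figure D1:**
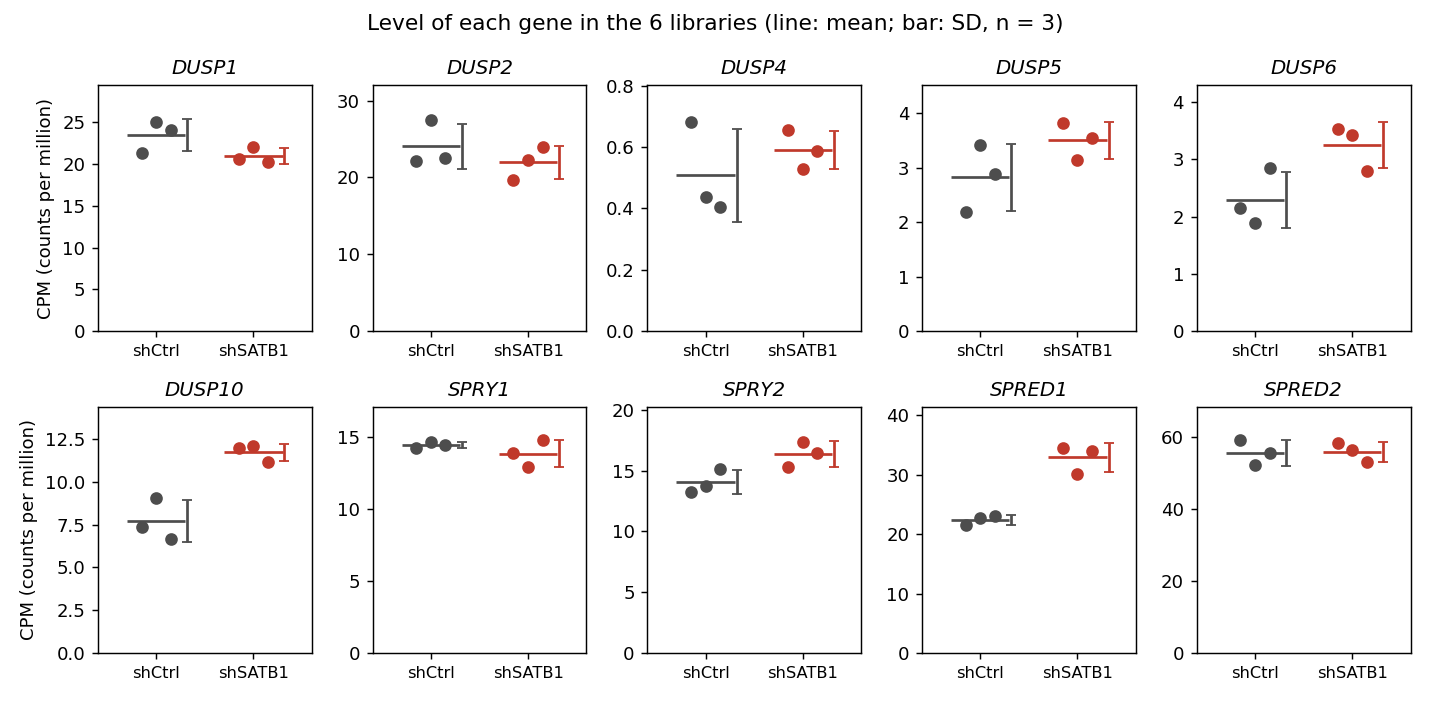
Levels in CPM (y axes, each from 0) of the 10 genes in the 3 shCtrl libraries (grey) and the 3 shSATB1 libraries (red). Points are libraries, horizontal lines group means and bars the SD. SPRED1, DUSP10 and SPRY2 show no overlap between the groups, and the other 7 genes do.

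The members differed widely in level within the control cells. Per kilobase of exon, DUSP2, DUSP1 and SPRED2 were highest in shCtrl, at 12.4 ± 1.53, 11.6 ± 0.938 and 10.8 ± 0.681 CPM per kb (SD, n = 3). The libraries of DUSP2 and DUSP1 overlapped, as did those of DUSP1 and SPRED2, so these neighbours in the order do not differ beyond their spread. SPRY2 followed at 4.62 ± 0.324 CPM per kb and SPRY1 at 3.65 ± 0.0568 CPM per kb, each apart from its neighbours. SPRED1, at 2.71 ± 0.0943 CPM per kb, and DUSP10, at 2.64 ± 0.419 CPM per kb, overlapped. DUSP5, DUSP6 and DUSP4 were lowest, at 1.08 ± 0.236, 0.496 ± 0.106 and 0.0700 ± 0.0208 CPM per kb, without overlap between neighbours. An antisense gene shares 1875 of the 4632 exon bases of DUSP6, and reads there may have been set aside. The DUSP6 level may thus be too low, and its order against DUSP5 is uncertain. In shSATB1 the level of SPRED1 was 3.98 ± 0.295 CPM per kb and that of DUSP10 4.02 ± 0.173 CPM per kb, and their means were above that of SPRY1, 3.50 ± 0.237 CPM per kb, which had been above them in the control. The libraries of SPRED1 and SPRY1 overlapped in shSATB1, so these do not differ there beyond their spread, whereas those of DUSP10 and SPRY1 did not overlap.

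**Figure D2:**
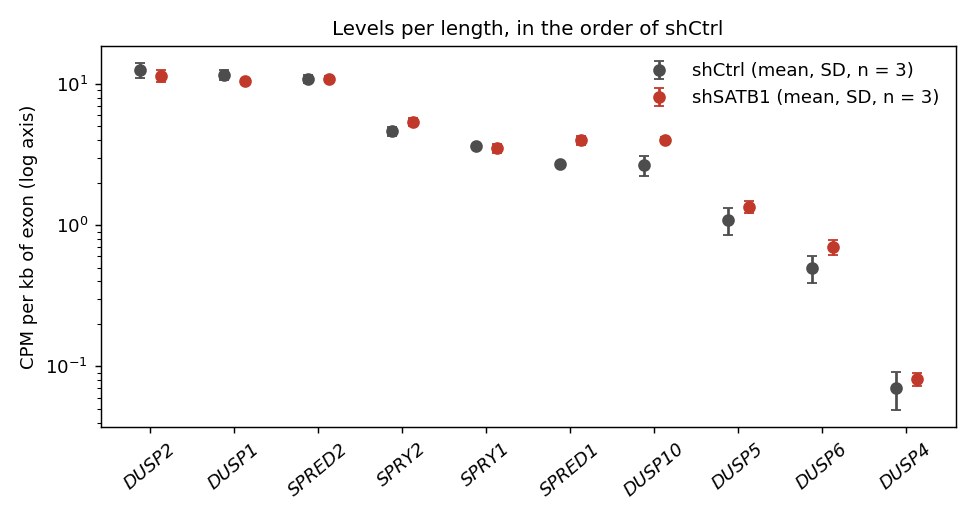
Mean CPM per kilobase of merged exons (log axis) of the 10 genes in shCtrl (grey) and shSATB1 (red), with the SD over 3 libraries, ordered by the level in shCtrl. Levels run from 12.4 (DUSP2) to 0.0700 CPM per kb (DUSP4) in shCtrl.

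SPRED1 and SPRED2 encode related adaptors that bind neurofibromin and bring it to the membrane, yet their transcripts did not move together. SPRED1 (ENSG00000166068, hg38 chromosome 15, 38252326 to 38357249, plus strand) stood at 21.5, 22.7 and 23.0 CPM in shCtrl 1, 2 and 3, against 34.5, 30.1 and 34.0 CPM in shSATB1 1, 2 and 3. All 3 knockdown libraries lay above all 3 controls, and shSATB1 2 was the nearest to them. SPRED1 thus had a log2 fold change of 0.56 (SE 0.0795, edgeR adjusted p = 0.000197), a ratio of 1.47 with a 95% interval from 1.31 to 1.65. It passed in each of 15 alternative settings, with log2 fold changes between 0.46 and 0.62 and adjusted p between 3.76e-08 and 0.00465. SPRED2 (ENSG00000198369, chromosome 2, 65310851 to 65432637, minus strand) stood at 59.2, 52.2 and 55.5 CPM in shCtrl, against 58.4, 56.5 and 53.0 CPM in shSATB1. The groups overlapped throughout. For SPRED2 the log2 fold change was 0.0082 (SE 0.0698, adjusted p = 0.944), and the 95% interval of the ratio, 0.907 to 1.12, leaves out a change of the size seen for SPRED1. Its sign was not stable, since 5 of the settings gave a value below 0.

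Ratios of reads within a library do not depend on scaling between libraries and were computed for 3 pairs of members, chosen after their values were seen. SPRED1 had 0.363, 0.434 and 0.414 reads per SPRED2 read in shCtrl and 0.592, 0.533 and 0.642 in shSATB1. The log2 ratio differed between the groups by 0.54, from -1.31 ± 0.134 to -0.77 ± 0.135 (SD, n = 3). A two-sided exact permutation test gave p = 0.1 (0.1 after adjustment over the 3 ratios), the smallest that 3 against 3 libraries can give, so this design cannot reach 0.05 for a single ratio. No pair of libraries from different groups overlapped in this ratio.

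**Figure D3:**
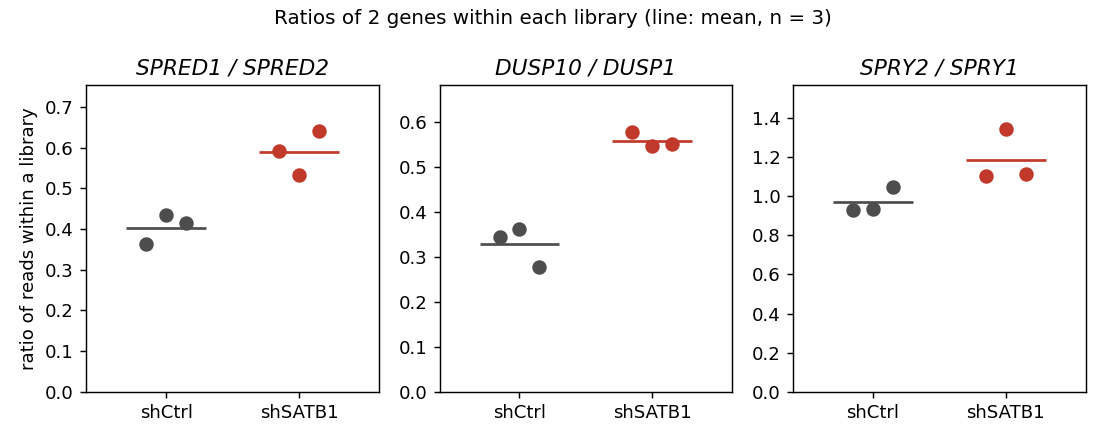
Reads of SPRED1 per read of SPRED2, of DUSP10 per read of DUSP1 and of SPRY2 per read of SPRY1 (y axes, from 0) in each library of shCtrl (grey) and shSATB1 (red), with group means as lines. In all 3 panels the shSATB1 libraries lie above the shCtrl libraries.

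DUSP10, whose product acts on p38 and JNK and is thus the member least tied to ERK itself, had the larger fold of the called members. It (ENSG00000143507, chromosome 1, 221701424 to 221742176, minus strand) stood at 7.36, 9.06 and 6.68 CPM in shCtrl, against 11.9, 12.1 and 11.1 CPM in shSATB1. The control libraries spread more than the knockdown libraries, and the groups did not overlap. DUSP10 had a log2 fold change of 0.60 (SE 0.119, edgeR adjusted p = 0.00182), a ratio of 1.52 with a 95% interval from 1.27 to 1.81. All 15 alternatives kept the call, with log2 fold changes from 0.51 to 0.93 and adjusted p from 5.04e-06 to 0.0157. The lowest of these fold changes came without shCtrl replicate 3, the library with the lowest DUSP10 level, and the highest with the covariate.

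The nuclear phosphatase genes DUSP1 and DUSP2 were the most abundant DUSP members, and neither passed. DUSP1 (ENSG00000120129, chromosome 5, 172768090 to 172771195, minus strand), whose product acts on p38, JNK and ERK, stood at 21.3, 25.0 and 24.1 CPM in shCtrl, against 20.6, 22.1 and 20.2 CPM in shSATB1. The groups overlapped because shCtrl 1 was low. This gave a log2 fold change of -0.16 (SE 0.0848, edgeR adjusted p = 0.167), with a ratio interval from 0.788 to 1.01. Without shCtrl replicate 1 the value was -0.23 and passed (adjusted p = 0.0417; 0.0417 to 0.862 over the 15 alternatives). DUSP2 (ENSG00000158050, chromosome 2, 96143166 to 96145440, minus strand), whose product acts on ERK and p38 in lymphocytes, stood at 22.2, 27.5 and 22.5 CPM in shCtrl, against 19.6, 22.3 and 24.0 CPM in shSATB1. Its log2 fold change was -0.13 (SE 0.101, edgeR adjusted p = 0.355), with a ratio interval from 0.785 to 1.06, and ranged from -0.19 without shCtrl replicate 1 to -0.021 without shCtrl replicate 2. For both genes the highest library was shCtrl 2, which had the lowest share of reads outside annotated exons (7.77%). With that share as a covariate the values turned to 0.053 for DUSP1 and 0.17 for DUSP2, neither past the threshold (edgeR adjusted p = 0.862 and 0.494). Its part in these levels was not tested further, and it was higher in every knockdown library, so share and group cannot be fully told apart. Within libraries, DUSP10 had 0.345, 0.362 and 0.278 reads per DUSP1 read in shCtrl and 0.578, 0.546 and 0.551 in shSATB1, a log2 difference of 0.78 (two-sided exact permutation p = 0.1, the smallest possible).

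Sequences upstream of these 3 phosphatase genes are printed because DUSP10 rose while DUSP1 and DUSP2 did not pass. They are the bases before a RefSeq start site (GRCh38.p14, all on the minus strand, 5′ to 3′) that lie outside the exons GENCODE gives for the gene. Capitals mark matches to a CRE (TGACGTCA), an AP-1 site (TGANTCA), an ETS core (CCGGAA), an E-box (CACGTG) or a CArG box, searched on both strands.
DUSP10, chr1:221742177-221742339: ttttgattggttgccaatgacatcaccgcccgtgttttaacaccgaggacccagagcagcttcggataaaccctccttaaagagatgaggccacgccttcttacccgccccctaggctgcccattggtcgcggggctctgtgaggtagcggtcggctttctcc
DUSP1, chr5:172771196-172771445: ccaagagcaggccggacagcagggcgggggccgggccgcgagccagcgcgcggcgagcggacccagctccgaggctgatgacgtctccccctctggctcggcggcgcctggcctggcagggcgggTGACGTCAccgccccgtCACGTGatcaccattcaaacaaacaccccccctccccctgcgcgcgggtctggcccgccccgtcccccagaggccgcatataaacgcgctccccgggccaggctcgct
DUSP2, chr2:96145441-96145690: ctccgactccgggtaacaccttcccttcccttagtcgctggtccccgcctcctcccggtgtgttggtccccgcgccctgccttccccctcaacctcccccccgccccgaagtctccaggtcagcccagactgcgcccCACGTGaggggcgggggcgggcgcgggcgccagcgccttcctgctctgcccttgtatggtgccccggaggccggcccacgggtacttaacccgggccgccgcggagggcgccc

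The DUSP1 stretch holds a CRE that begins 125 bases before the start site and an E-box that begins 108 bases before it, without overlap. The DUSP2 stretch holds an E-box that begins 113 bases before the start site, and the DUSP10 stretch holds none of the 5 motifs. The DUSP10 stretch is shorter, 163 bases against 250 for DUSP1 and for DUSP2. Bases next to its RefSeq start site lie in a GENCODE exon and are not printed. RefSeq windows from 250 bases before to 50 after a start were found for 8 of the 10 members, 13 windows in all. A CRE was found in 1 of these 13 windows and in 1.85% of all 35116 windows, an E-box in 2 and in 7.26%, an ETS core in 2 (SPRY1 and SPRY2) and in 17.2%, an AP-1 site in 1 (SPRED2) and in 7.71%, and a CArG box in 0 and in 1.29%. A match describes the letters of a window and is not a measured binding site.

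DUSP6, DUSP5 and DUSP4 were the members of lowest level, and all 3 had positive log2 fold changes that did not pass, although DUSP4 turned to -0.36 with the covariate. DUSP6 (ENSG00000139318, chromosome 12, 89347232 to 89353271, minus strand), whose product removes phosphate from ERK in the cytoplasm, stood at 2.15, 1.89 and 2.84 CPM in shCtrl, against 3.53, 3.42 and 2.79 CPM in shSATB1, with 52 to 97 reads in each library. Overlap came from shCtrl 3, the highest control, and shSATB1 3, the lowest knockdown library. Its log2 fold change was 0.50 (SE 0.193, edgeR adjusted p = 0.0638), with a ratio interval from 1.06 to 1.88 before adjustment. Without shCtrl replicate 3 it was 0.68 and passed (adjusted p = 0.0361; 0.0361 to 0.624 over the alternatives). An antisense gene, AC024909.2, shares 1875 bases of exon with DUSP6 and had at most 3 reads in a library, and reads that fall on both may have been set aside as ambiguous.

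DUSP5 (ENSG00000138166, chromosome 10, 110497838 to 110511544, plus strand), whose product is selective for nuclear ERK, stood at 2.19, 3.42 and 2.88 CPM in shCtrl, against 3.82, 3.14 and 3.55 CPM in shSATB1. Only shCtrl 2 reached into the range of the knockdown libraries. DUSP5 had a log2 fold change of 0.31 (SE 0.184, edgeR adjusted p = 0.224). The value was 0.15 without shCtrl replicate 1, 0.47 without shCtrl replicate 2 and 0.73 with the covariate, and none of these passed (adjusted p = 0.586, 0.0597 and 0.132). DUSP4 (ENSG00000120875, chromosome 8, 29333064 to 29350668, minus strand), a nuclear phosphatase gene, had 19, 12 and 11 reads in shCtrl and 18, 15 and 17 reads in shSATB1. These counts correspond to 0.682, 0.436 and 0.406 CPM and to 0.655, 0.529 and 0.586 CPM, with the knockdown values inside the control range. For DUSP4 the log2 fold change was 0.21 (SE 0.352, edgeR adjusted p = 0.689), and it ranged from 0.073 without shCtrl replicate 3 to 0.47 without shCtrl replicate 1. The 95% interval of its ratio, 0.686 to 1.95, is the widest among the members, and a change as large as that of DUSP10 was not detectable at this depth.

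The Sprouty genes SPRY1 and SPRY2 had like read counts in the controls and did not pass. SPRY2 (ENSG00000136158, chromosome 13, 80335976 to 80340951, minus strand) stood at 13.2, 13.7 and 15.1 CPM in shCtrl, against 15.3, 17.4 and 16.4 CPM in shSATB1. The groups did not overlap, but shCtrl 3 and shSATB1 1 lay close together. The log2 fold change was 0.22 (SE 0.0919, edgeR adjusted p = 0.0838), and no alternative brought it past the threshold (adjusted p from 0.0516 to 0.271). SPRY1 (ENSG00000164056, chromosome 4, 123396795 to 123403760, plus strand), whose product also limits signalling from the T cell receptor, stood at 14.2, 14.7 and 14.4 CPM in shCtrl, against 13.9, 12.9 and 14.8 CPM in shSATB1. Its control libraries were the closest together of any member relative to their mean. SPRY1 had a log2 fold change of -0.061 (SE 0.0890, edgeR adjusted p = 0.644), with a ratio interval from 0.840 to 1.09. SPRY2 had 0.929, 0.936 and 1.05 reads per SPRY1 read in shCtrl and 1.10, 1.34 and 1.11 in shSATB1. This log2 difference of 0.28 (two-sided exact permutation p = 0.1, the smallest possible) was the least of the 3 pairs, and its groups did not overlap.

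**Figure D4:**
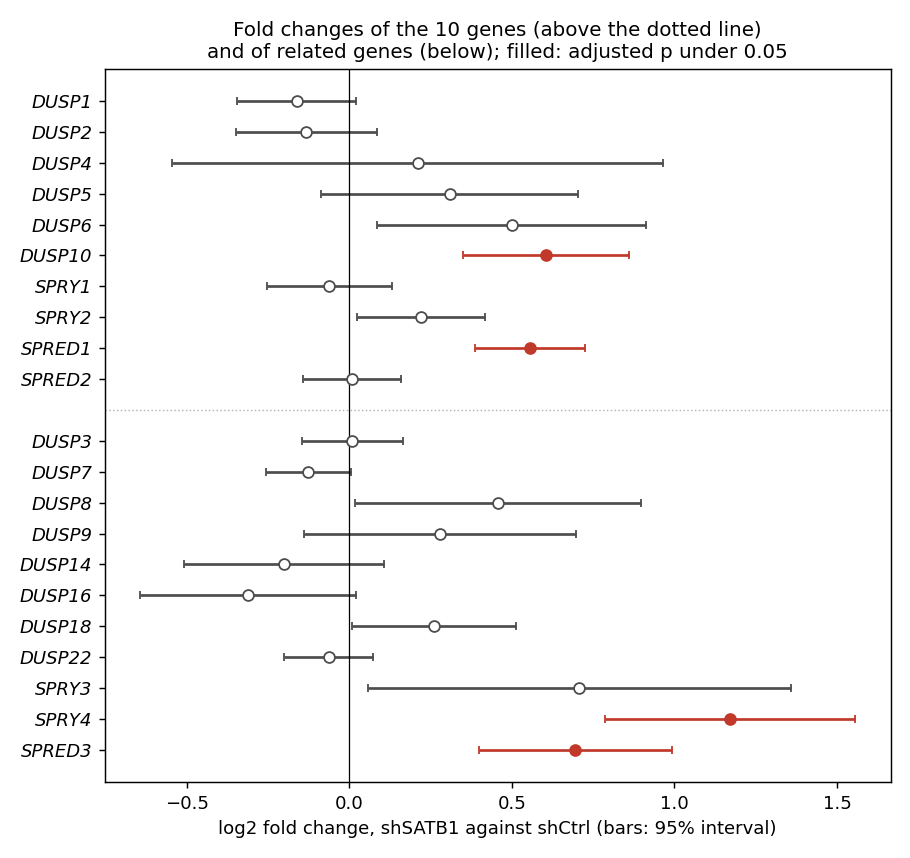
Log2 fold change of shSATB1 against shCtrl (x axis) with 95% intervals from edgeR for the 10 genes (above the dotted line) and for 11 tested related genes (below it). Filled red points passed an adjusted p of 0.05. These are DUSP10, SPRED1, SPRY4 and SPRED3, all above 0.

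Relatives outside the 10 genes were described from a list of 13 further DUSP, SPRY and SPRED genes, of which 11 were tested (DUSP19 and DUSP26 had at most 2 reads per library). Of these, 2 rose and 0 fell (edgeR; 5 rises and 0 falls at an unadjusted p under 0.05, and 0 falls by DESeq2 and limma-voom), with a median log2 fold change of 0.26. The 18.2% called lies below the 30.9% of all tested genes, and no share over all genes was taken for the unadjusted counts. SPRY4, a Sprouty gene like SPRY1 and SPRY2, stood at 1.51, 1.78 and 1.55 CPM in shCtrl, against 4.08, 3.39 and 3.45 CPM in shSATB1. Its rise of 2.25-fold (log2 fold change 1.17, SE 0.179, adjusted p = 0.000331) was larger than that of any of the 10 members and passed in all 15 alternatives. SPRED3, the third SPRED gene, rose 1.62-fold from 3.96 ± 0.552 to 6.42 ± 0.309 CPM (adjusted p = 0.00194), a call lost with the covariate (adjusted p = 0.306). DUSP7, a cytoplasmic ERK phosphatase gene like DUSP6, stood at 54.8 ± 0.263 and 50.2 ± 0.270 CPM and did not pass (adjusted p = 0.133). This gene was chosen after its values were seen. Without shCtrl replicate 1 the list had 5 rises, and without shCtrl replicate 2 there was 1 fall. Over all tested genes, calls in these fits were 6780 and 5384, against 5410 with all libraries.

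The cascade that these inhibitors act on was described from a list of 25 genes, of which 60.0% passed, against 30.9% of all tested genes. Of these 25 genes of the RAS-ERK cascade, 11 rose and 4 fell, with a median log2 fold change of 0.11. The RAS gene NRAS rose from 83.4 ± 4.10 to 154.4 ± 6.14 CPM and HRAS fell from 22.4 ± 2.03 to 14.4 ± 0.949 CPM, so RAS genes moved in both directions (adjusted p = 8.84e-07 and 0.000214). RASA1, which encodes another protein that switches RAS off, rose from 50.6 ± 4.28 to 77.9 ± 3.97 CPM and BRAF from 42.9 ± 4.50 to 61.7 ± 2.52 CPM (edgeR adjusted p = 5.06e-05 and 0.000286). The HRAS and BRAF calls were lost with the covariate (adjusted p = 0.0765 and 0.119). The other falls were PEA15, RASGRP1 and MAPK3, which encodes an ERK kinase. MAPK3 did not pass with the covariate (adjusted p = 0.514), with no filter (0.0507) and without shCtrl replicate 3 or any 1 of the shSATB1 replicates (edgeR adjusted p from 0.0688 to 0.186). The list had 7 rises without shCtrl replicate 3 or shSATB1 replicate 3, 6 with a correction for gene length and 4 with the covariate.

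The p38 and JNK cascade, on which the DUSP10 product acts, had 4 rises and 4 falls among 14 genes (57.1% called, against 30.9% of all tested genes) and a median log2 fold change of 0.0086. The even balance did not hold in other fits, with 0 rises and 4 falls with the covariate, 0 rises and 6 falls with the length correction and 1 rise and 4 falls with no filter. MAP2K3, a p38 kinase kinase gene, fell from 60.6 ± 1.05 to 45.0 ± 3.00 CPM (adjusted p = 0.000423, called in all alternatives). MAP2K6, with the same role, rose from 22.3 ± 0.818 to 29.3 ± 2.44 CPM (adjusted p = 0.00272), a call lost with the covariate (adjusted p = 0.142) and with the length correction (adjusted p = 0.125). Of the list, 1 rise was called without shCtrl replicate 3, shSATB1 replicate 1 or shSATB1 replicate 3. Falls dropped to 2 when shCtrl replicate 3 was left out and to 1 when shSATB1 replicate 3 was. Over all tested genes, calls were 3733 without shCtrl replicate 3, 3487 without shSATB1 replicate 1 and 3502 without shSATB1 replicate 3, against 5410. They were 2120 with the covariate, 5664 with the length correction and 5594 with no filter.

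Other transcripts known to follow ERK activity were compared with the members because they respond to the same signal. Of 19 listed, 16 were tested, 9 rose and 1 fell, with a median log2 fold change of 0.41. The 62.5% called stands beside 30.9% of all tested genes. CCND1, a cyclin gene, rose from 0.474 ± 0.133 to 1.41 ± 0.677 CPM and the AP-1 gene FOS from 0.827 ± 0.223 to 1.72 ± 0.421 CPM (edgeR adjusted p = 0.00797 and 0.0124). Both are scarce, at 11 to 61 reads per library, and both calls were lost without shSATB1 replicate 2, the library highest in each (adjusted p = 0.0616 and 0.0725). EGR2, from 4 to 36 reads, and EGR3, from 20 to 43 reads, rose with adjusted p of 0.0157 and 0.0298. EGR2 lost the call without shCtrl replicate 3, shSATB1 replicate 1 or shSATB1 replicate 2 (adjusted p from 0.0671 to 0.0855). EGR3 lost it without any 1 library other than shCtrl 1 (adjusted p from 0.0511 to 0.112) and with DESeq2 (adjusted p = 0.0705). With the covariate neither passed (adjusted p = 0.0710 and 0.438), at log2 fold changes of 2.05 for EGR2 and 0.73 for EGR3, against 1.54 and 0.80 without it. More abundant rises were those of MCL1, a survival gene, from 155.8 ± 2.66 to 208.0 ± 3.73 CPM and of ZFP36L1, the gene of an mRNA decay factor, from 36.2 ± 1.08 to 54.2 ± 3.34 CPM (edgeR adjusted p = 0.000148 and 5.31e-05). Both passed in all 15 alternatives and were chosen after their values were seen. The fall was MYC, from 501.7 ± 14.2 to 309.0 ± 9.59 CPM (adjusted p = 3.23e-06). Rises numbered 3 without shSATB1 replicate 2 and 4 with the covariate. Calls over all tested genes were 4193 and 2120 in these fits, against 5410.

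Of 8 genes for proteins that bind SPRY or SPRED products, 7 were tested, 2 rose and 1 fell (42.9% called, against 30.9% of all tested genes). CBLB, a ubiquitin ligase gene related to CBL, rose from 25.5 ± 1.91 to 38.9 ± 1.35 CPM, and SIAH2, a ubiquitin ligase gene whose product targets Sprouty proteins, fell from 69.3 ± 5.62 to 45.6 ± 0.393 CPM (edgeR adjusted p = 7.85e-05 and 4.09e-05, called in all alternatives). CBL, the ligase that Sprouty proteins bind, rose from 192.0 ± 36.5 to 247.8 ± 9.90 CPM (adjusted p = 0.0155). That call was lost without shCtrl replicate 3, shSATB1 replicate 1 or shSATB1 replicate 3 (adjusted p from 0.0540 to 0.0629), although the log2 fold change, 0.37 in the full comparison, stayed between 0.35 and 0.37. With the covariate it was -0.11 (adjusted p = 0.433). Whether any list differed from the 10 members was not tested.

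**Figure D5:**
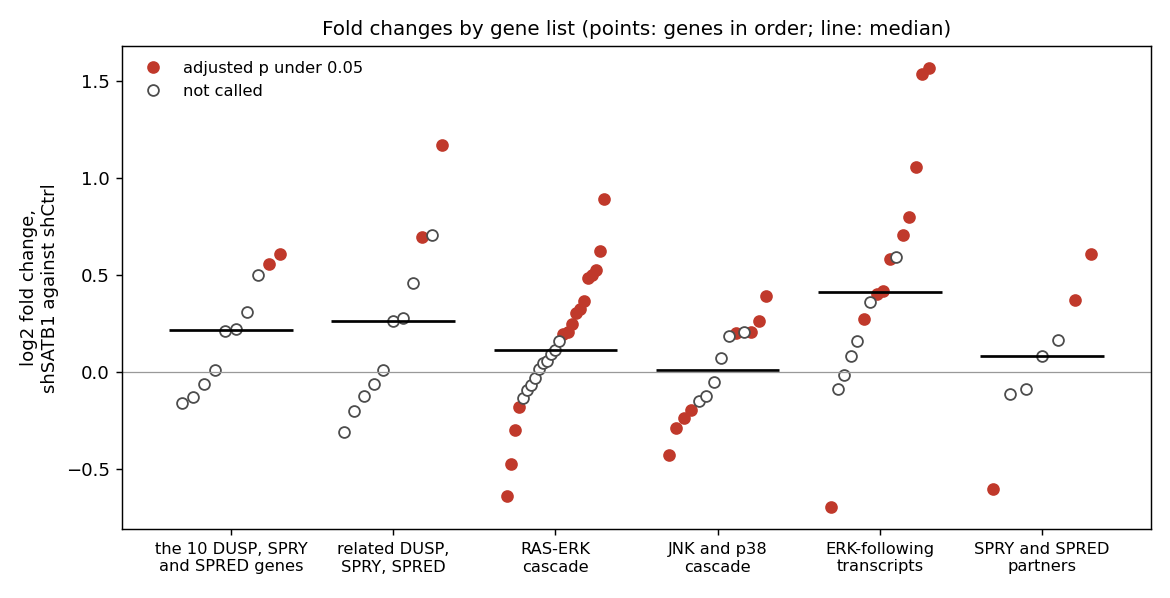
Log2 fold change of shSATB1 against shCtrl (y axis) for tested genes of the 10-gene set and of 5 further lists (x axis). Points are genes in rising order, filled red where the adjusted p was under 0.05, and black lines are medians. Medians are 0.22 for the 10 genes, 0.41 for the ERK-following transcripts and 0.0086 for the JNK and p38 cascade.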

How the data were processed

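The authors deposited raw read counts per Ensembl gene, 1 table per library. Trim Galore, STAR, HTSeq and hg38 are named without versions or settings, per the submitters' processing notes. The strand setting and annotation are not given in the sources used, so reads of overlapping antisense genes are uncertain. All 58735 identifiers matched GENCODE 29. The 5 lines per table that name no gene (reads in no annotated exon 7.77% to 11.7%, ambiguous 8.99% to 10.1%, not unique 4.22% to 4.53%) were left out of library sizes and tests. Within groups, 0 pairs of libraries were identical.

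The test was the quasi-likelihood F test of edgeR 4.0.16 under R 4.3.3, with TMM scaling, a filterByExpr minimum count of 10 and no covariates, adjusted over 17520 genes with a threshold of 0.05. Standard errors come from the fold change and its F value. CPM per kb used merged exon lengths. The code was checked on simulated counts. Alternatives used DESeq2 1.42.0 and limma 3.58.1. Ratios were tested with scipy 1.17.1. The members and lists were chosen with earlier results of these data known. All members were named, and from each list up to 4 called genes of largest change, unless said otherwise. Promoter sequences are from RefSeq (GRCh38.p14).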

Additional observations from a re-analysis of the deposited data

How the results depend on the processing

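All 10 members were refitted under 15 alternatives, except DUSP4, which a filter of 1 CPM in 3 libraries removed. The calls of DUSP10 and SPRED1 held in each. With the percentage of reads outside annotated exons as covariate, the log2 fold change turned to 0.053 for DUSP1, 0.17 for DUSP2, -0.36 for DUSP4 and -0.14 for SPRED2, and 2120 genes in all were called, against 5410. SPRED2 was at -0.0038 with no filter and -0.024 with a gene length correction. The covariate left 1 rise among related genes, 4 in the RAS-ERK cascade, 0 in the p38 and JNK cascade, 4 among ERK-following transcripts and 1 among binding partners. The length correction gave 6, 0 and, among related genes, 1 fall. No filter gave 1 rise in the p38 and JNK cascade.

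Leaving out each library gave 2 to 3 rises and 0 to 1 falls among the members, and log2 fold changes from -0.23 to -0.11 for DUSP1, -0.19 to -0.021 for DUSP2, 0.073 to 0.47 for DUSP4, 0.15 to 0.47 for DUSP5, 0.38 to 0.68 for DUSP6 and -0.032 to 0.054 for SPRED2. Rises and falls ranged from 2 to 5 and 0 to 1 for related genes, 7 to 12 and 3 to 5 for the RAS-ERK cascade, 1 to 5 and 1 to 5 for the p38 and JNK cascade, 3 to 9 and 1 to 1 for ERK-following transcripts, and 1 to 3 and 1 to 2 for binding partners. Calls over all tested genes ranged from 3487 without shSATB1 replicate 1 to 6780 without shCtrl replicate 1, against 5410. The cause of these shifts was not tested.

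With the replicate number as a block, 2 members rose and 0 fell, and 5903 genes were called. Deviations of same-numbered libraries correlated at 0.0798, 0.0712 and 0.0032. Of the controls, shCtrl 1 and 2 correlated best with their own number and shCtrl 3 did not. With 3 libraries per group, values this weak cannot decide whether the labels' numbers pair the libraries. At 11 to 19 reads, DUSP4 is limited by depth.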
